A study of Homo sapiens with 8 samples.

Results

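Cells hold on to the sheet of matrix under them through integrins, receptors built from an alpha and a beta chain that bind matrix outside the cell and the cytoskeleton inside it. Fibronectin, thrombospondin 1 and the laminins are large matrix glycoproteins to which these receptors bind, and in the gut lining such contacts anchor the epithelium and guide its movement over a wound. The genes described here were 10 named genes of that system: FN1 for fibronectin, THBS1 for thrombospondin 1, LAMC1 for the laminin gamma 1 chain, and the integrin subunit genes ITGA2, ITGA3, ITGA5, ITGA6, ITGAV, ITGB1 and ITGB4. They were found by symbol in the deposited gene table, where each matched 1 of 58735 genes, and all 10 were among the 15084 genes with enough counts to test.

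The study gave exosomes of M2 macrophages, the alternatively activated type, to epithelial cells and profiled their mRNA. The cells that received them were of the Caco-2 line, from a colorectal carcinoma, wild type and, by their cell type label, stem cells, for which no markers were tested here, in 3 M2-exo treated libraries and 3 untreated libraries; the protocol gives PBS buffer as the alternative to M2-exo. The exosomes were made from THP-1, a monocytic leukaemia line. No source used here gives the dose, the time of exposure or whether replicates were separate cultures, so each p-value reflects only how far these libraries spread, which may be technical.

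The treated libraries held 17408745, 17730203 and 18184325 counts in genes, and the untreated libraries 15608937, 17462784 and 18324599. Untreated 1 stood apart: genes of the mitochondrial chromosome took 4.16% of its counts, against 7.01% to 8.11% in the other libraries. On the first principal component, which held 50.1% of the variance, untreated 1 and untreated 3 lay at the ends (scores -56.0 and 43.2), with the treated libraries between them (-13.4 to 23.8). Epithelial markers were abundant, with 13156 to 16126 counts of EPCAM per library. Among the intestinal markers of that list, KRT20, CDX1 and GPA33 had 0 to 5 counts in each library. Others were well detected, with 8252 to 12219 counts of VIL1, 7652 to 10570 of CDH17 and 556 to 1964 of CDX2. Of 15 macrophage markers, CD68 and TYROBP were listed at 0 in every library and PTPRC had 1 count in untreated 2 alone. The 6 that were tested were CD14, CSF1R, LYZ, AIF1, MSR1 and FCER1G, of which CD14 had 112 to 129 counts in treated and 94 to 158 in untreated libraries and CSF1R 42 to 98 and 43 to 87. The summed level of the list was 15.0 to 22.0 CPM (counts scaled to library size with TMM factors) in treated and 18.3 to 23.4 CPM in untreated libraries. Of 10 fibroblast markers, FAP and POSTN were at 0 in every library, and the sum, mostly PDGFRA and COL1A1, was 70.7 to 94.6 CPM in treated and 69.6 to 80.7 CPM in untreated libraries. Whether these RNAs have a part in the values below was not tested.

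The DNA just before a RefSeq start is shown for 3 of the genes described below. FN1 had the highest level, and ITGB1 was the most abundant integrin gene. THBS1 was the only gene of the 10 whose groups did not overlap, as was found for 3.95% of all genes tested. Each line gives the 250 bases before that start, read 5′ to 3′ on the gene's strand (GRCh38.p14). Capitals mark TGACGTCA, the cAMP response element, and GGAATG, the core of sites bound by TEAD factors.
FN1, chr2:215436069-215436318, minus strand: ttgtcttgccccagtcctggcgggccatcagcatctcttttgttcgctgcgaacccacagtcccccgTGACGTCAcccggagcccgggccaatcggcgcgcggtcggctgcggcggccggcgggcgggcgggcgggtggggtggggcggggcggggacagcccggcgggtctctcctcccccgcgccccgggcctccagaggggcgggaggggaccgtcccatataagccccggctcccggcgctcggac
THBS1, chr15:39580829-39581078, plus strand: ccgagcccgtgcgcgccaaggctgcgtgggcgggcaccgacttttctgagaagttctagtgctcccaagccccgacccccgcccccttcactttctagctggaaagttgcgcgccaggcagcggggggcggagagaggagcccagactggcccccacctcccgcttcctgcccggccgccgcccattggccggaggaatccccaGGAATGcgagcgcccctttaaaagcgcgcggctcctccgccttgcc
ITGB1, chr10:32958231-32958480, minus strand: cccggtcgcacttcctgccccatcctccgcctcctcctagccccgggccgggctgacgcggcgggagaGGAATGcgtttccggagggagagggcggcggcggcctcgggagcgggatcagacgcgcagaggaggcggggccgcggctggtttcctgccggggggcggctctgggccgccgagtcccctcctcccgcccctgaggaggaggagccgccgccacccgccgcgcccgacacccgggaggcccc
The RefSeq promoter table matched 8 of the 10 genes, in 11 windows, with 2 each for ITGA6, ITGAV and ITGB1. The ITGB1 window shown is the one of its 2 with the TEAD core, and both lie inside the gene span of the deposited table. ITGA3 and ITGB4 had no match. Both strands were searched, and no match overlapped another. The TEAD core lay in a window of THBS1 (bases -46 to -41 from the start), ITGA5 (-82 to -77) and ITGB1 (-182 to -177), while 11.9% of all 34943 promoter windows of this length hold it. FN1 alone held the cAMP response element (-183 to -176), which 1.63% of windows hold. The AP-1 site TGAGTCA, found in 4.22% of windows, had no match in the 11. A match describes the letters of the window and not binding there.

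None of the 10 genes passed the test between treated and untreated cells. By edgeR's quasi-likelihood test with Benjamini-Hochberg adjustment over 15084 genes, 0 of the 10 were called, and 0.0% of all genes tested were called (adjusted p = 0.9999 for each of the 10). At an unadjusted p under 0.05, edgeR found 0 of the 10 and 111 genes in all, or 0.736%. DESeq2 and limma-voom also called 0 genes after adjustment, with 124 of 29413 and 104 of 15084 genes below the unadjusted threshold. The DESeq2 total is larger because its fit kept genes of low count. The log2 fold change of treated over untreated was above 0 in 7 of the 10 and below 0 in 3, with a median of 0.03, beside a median of -0.01 and 47.1% above 0 over all genes tested. The 95% interval left out a 2-fold difference in either direction for all 10 genes, as for 94.7% of tested genes with a mean of at least 5 CPM. It left out a 1.5-fold difference for 8 of the 10, the exceptions being ITGA2 and ITGA3, and for 62.5% of those tested genes.

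**Figure D1:**
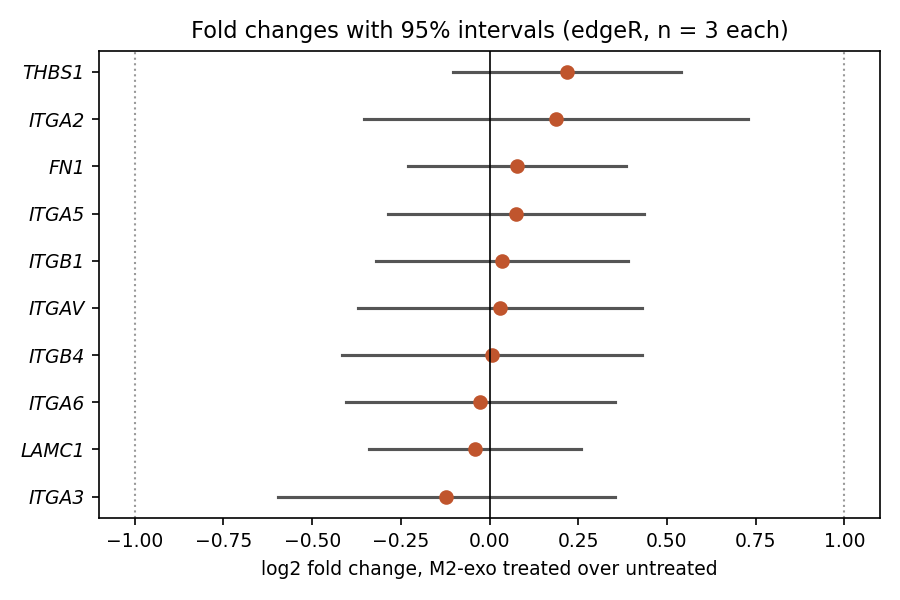
Log2 fold change of each gene, M2-exo treated over untreated, from edgeR (x axis), with 95% intervals as bars; genes run down the y axis and dotted lines mark 2-fold differences. Every interval includes 0, and the point farthest from 0 is THBS1 at 0.22.

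Among the matrix proteins, FN1 (ENSG00000115414, chromosome 2 from 215360440 to 215436172 in GRCh38) encodes fibronectin, which assembles into fibrils that cells grip mainly through integrin alpha 5 beta 1. Its level was 518, 617 and 549 FPKM (fragments per kilobase of gene, scaled to library size) in treated 1 to 3, against 598, 501 and 492 FPKM in untreated 1 to 3. The group means were 561 ± 51.0 and 530 ± 58.7 FPKM (SD, n = 3 each). Untreated 1 lay between treated 2 and treated 3, so the groups overlapped. The log2 fold change was 0.08 (SE 0.14, 95% interval -0.23 to 0.38). FN1 was a major transcript of these cells, with 0.836% to 1.06% of all gene counts and rank 30 by mean FPKM among protein-coding genes.

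THBS1 (ENSG00000137801, chromosome 15 from 39581079 to 39599466) encodes a matricellular glycoprotein that binds CD47 and several integrins, activates latent TGF-beta and is a well-known YAP-TEAD target. It stood at 8.32, 9.83 and 9.06 FPKM in treated 1 to 3, against 8.15, 7.08 and 8.08 FPKM in untreated 1 to 3. All 3 treated values were above all 3 untreated ones, by a narrow gap between treated 1 and untreated 1. Such a gap, in either direction, was found for 1 of the 10 genes and for 3.95% of all genes tested, and 1.65% of genes were higher in treated cells without overlap. The means were 9.07 ± 0.758 and 7.77 ± 0.599 FPKM, a log2 fold change of 0.22 (SE 0.14, 95% interval -0.10 to 0.54; unadjusted p = 0.161 by edgeR, not passing). Relative to FN1, THBS1 had a ratio of 0.0161, 0.0159 and 0.0165 in treated and 0.0136, 0.0141 and 0.0164 in untreated libraries, so that the ratio was overlapping where THBS1 itself was not. In bulk RNA such as this, a different share of cells that make a transcript and a different amount of it per cell cannot be told apart.

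LAMC1 (ENSG00000135862, chromosome 1 from 183023460 to 183145592) encodes the gamma chain shared by most basement membrane laminins. Its level was 84.7, 99.9 and 97.2 FPKM in treated libraries, against 105, 89.0 and 95.1 FPKM in untreated ones (means 94.0 ± 8.09 and 96.4 ± 8.04; log2 -0.04, SE 0.13). The highest and the lowest of the 6 values were untreated 1 and treated 1. Its usual partners were also abundant: LAMB1, the beta 1 chain, had 83.3 ± 5.88 FPKM in treated and 82.2 ± 7.56 FPKM in untreated cells, and LAMA5, the alpha 5 chain, 56.4 ± 14.4 and 49.3 ± 22.0 FPKM. LAMC1 stayed within 84.7 to 105 FPKM over the libraries, while LAMA5 reached from 26.3 FPKM in untreated 1 to 72.4 FPKM in treated 3.

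**Figure D2:**
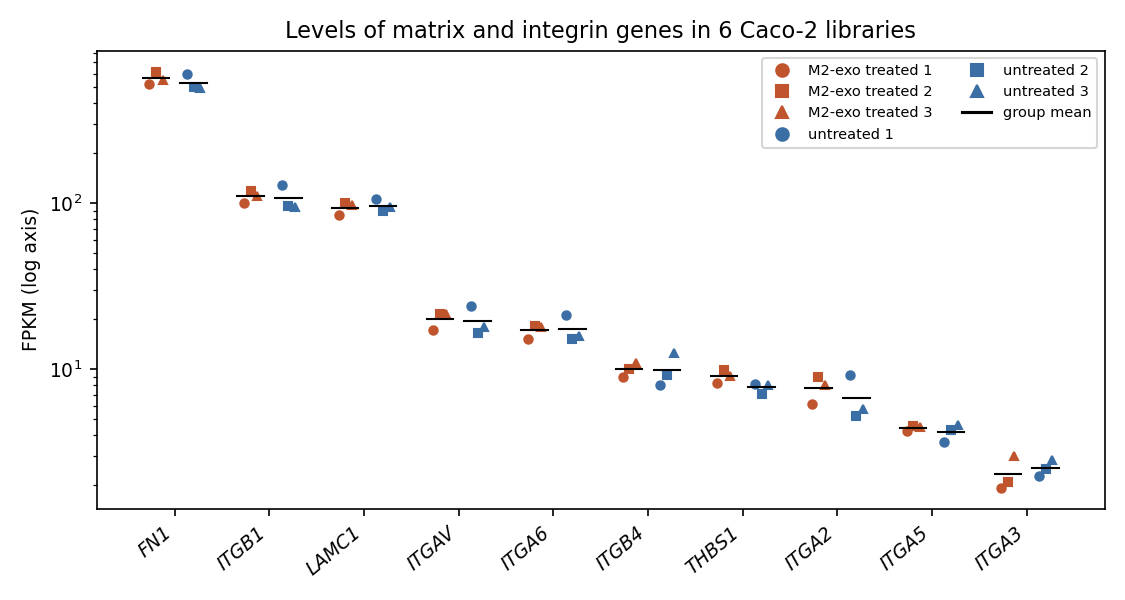
Level of each gene in every library in FPKM on a log axis (y axis), genes ordered by mean level (x axis); orange marks are the 3 M2-exo treated and blue marks the 3 untreated libraries, with lines at the group means. FN1 lies near 546 FPKM, ITGB1 and LAMC1 at 108 and 95.2 FPKM, and ITGA3 lowest near 2.44 FPKM, and only THBS1 has all treated marks above all untreated ones.

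Of the receptor genes, ITGB1 (ENSG00000150093, chromosome 10 from 32900319 to 33005792) encodes the beta 1 chain, the shared partner of the alpha 2, alpha 3, alpha 5, alpha 6 and alpha V chains. It stood at 99.4, 118 and 111 FPKM in treated libraries and at 129, 96.3 and 94.7 FPKM in untreated libraries. Untreated 1 was the highest of the 6 and the other untreated libraries the lowest, so the treated values all lay within the untreated range. The means were 109.5 ± 9.48 and 107 ± 19.1 FPKM (log2 0.03, SE 0.16).

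ITGA5 (ENSG00000161638, chromosome 12 from 54395261 to 54419460) encodes the alpha 5 chain of the main fibronectin receptor. It had 4.23, 4.56 and 4.50 FPKM in treated libraries, against 3.66, 4.33 and 4.61 FPKM in untreated libraries (means 4.43 ± 0.174 and 4.20 ± 0.487; log2 0.07, SE 0.16). Here untreated 1 was the lowest library, the opposite of its place for ITGB1. The ratio of ITGA5 to ITGB1 in FPKM was therefore 0.0285 in untreated 1, against 0.0386 to 0.0426 in treated libraries and 0.0450 and 0.0486 in untreated 2 and 3.

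The collagen receptor chain gene ITGA2 (ENSG00000164171, chromosome 5 from 52989326 to 53094779) was the most variable of the 10 among untreated libraries. It had 6.15, 8.93 and 8.06 FPKM in treated 1 to 3, against 9.24, 5.24 and 5.78 FPKM in untreated 1 to 3. All treated values lay above untreated 2 and 3 and below untreated 1. The means were 7.71 ± 1.42 and 6.75 ± 2.17 FPKM, a log2 fold change of 0.19 (SE 0.24, 95% interval -0.35 to 0.73). Without untreated 1 the log2 fold change was 0.49 (unadjusted p = 0.0247, adjusted p = 0.957 by edgeR), more than 1.5 times as large and still not passing. In that fit 370 of 15564 genes had an unadjusted p under 0.05 by edgeR, against 111 of 15084 with every library kept. The rise was not particular to untreated 1: the number was 349 of 15438 genes without untreated 3. It was 158 of 15525 genes without untreated 2. The log2 fold change of ITGA2 was 0.05 without untreated 2 and 0.11 without untreated 3.

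ITGAV (ENSG00000138448, chromosome 2 from 186590065 to 186680901) encodes the alpha V chain, which binds RGD motifs in fibronectin and vitronectin with several beta chains. Its values were 17.2, 21.4 and 21.4 FPKM in treated libraries and 24.1, 16.5 and 18.0 FPKM in untreated libraries (log2 0.03, SE 0.18), with untreated 1 again highest. The laminin receptor chain gene ITGA6 (ENSG00000091409, chromosome 2 from 172427354 to 172506282), whose product pairs with beta 1 or, in hemidesmosomes, with beta 4, had 15.2, 18.3 and 17.8 FPKM in treated libraries and 21.1, 15.3 and 15.8 FPKM in untreated libraries (log2 -0.03, SE 0.17). ITGAV and ITGA6 thus placed untreated 1 first and spread over a wider range in untreated than in treated libraries, as ITGB1 did.

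ITGB4 (ENSG00000132470, chromosome 17 from 75721328 to 75757818) encodes the beta 4 chain, which pairs only with alpha 6 and ties hemidesmosomes to keratin filaments. It had 9.03, 10.0 and 10.9 FPKM in treated libraries, against 8.0, 9.28 and 12.4 FPKM in untreated libraries (means 9.99 ± 0.931 and 9.91 ± 2.29; log2 0.01, SE 0.19). The treated libraries lay inside the untreated range, with untreated 1 lowest and untreated 3 highest. ITGB4 overlaps GALK1, the galactokinase gene on the opposite strand, which had 668, 750 and 845 counts in treated and 413, 875 and 1217 counts in untreated libraries, in the same order as ITGB4 within each group. No source used here gives the strand setting of the counting, so reads of this pair may be split wrongly. Other opposite-strand genes that overlap 7 more of the 10 had at most 18 counts in any library.

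ITGA3 (ENSG00000005884, chromosome 17 from 50055968 to 50090481) encodes the alpha 3 chain of another laminin receptor. Its level, the lowest of the 10, was 1.93, 2.10 and 3.00 FPKM in treated libraries and 2.29, 2.51 and 2.83 FPKM in untreated libraries (means 2.34 ± 0.575 and 2.54 ± 0.270; log2 -0.12, SE 0.21, 95% interval -0.60 to 0.35). Treated 1 and 2 were lower than every untreated library, while treated 3 was the highest of the 6. ITGA3 was the only gene of the 10 with a larger SD of log2 CPM in treated than in untreated libraries; the other 9 had the larger SD in untreated libraries, as did 72.0% of all genes tested.

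By mean FPKM over the 6 libraries the order was FN1, ITGB1, LAMC1, ITGAV, ITGA6, ITGB4, THBS1, ITGA2, ITGA5 and ITGA3. FN1 was 4.65 to 5.22 times ITGB1 in FPKM, library by library, and LAMC1 was 4.36 to 5.39 times ITGAV. Neighbours that changed places between libraries were ITGB1 and LAMC1 (ratio 0.996 to 1.23), ITGB4 and THBS1 (0.981 to 1.54), and THBS1 and ITGA2 (0.883 to 1.40). The other 6 neighbouring pairs kept their order in all 6 libraries, with ITGAV closest above ITGA6 at 1.08 to 1.20 times. FPKM divides by the gene length in the table, such as 17315 bases for FN1 and 6011 for ITGB1, which may differ from the length of the transcript in use.

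Ratios between subunits showed which receptor chains kept pace across libraries. ITGA6 over ITGB1 stayed within 0.153 to 0.161 in treated and 0.159 to 0.166 in untreated libraries. ITGA6 over ITGB4, the hemidesmosome pair, was 1.69, 1.82 and 1.64 in treated libraries, against 2.64, 1.65 and 1.27 in untreated libraries. ITGA6 over ITGB4 thus differed 2.09-fold among untreated libraries and 1.11-fold among treated ones. ITGA2 over ITGB4 was 0.681, 0.889 and 0.740 in treated and 1.15, 0.565 and 0.464 in untreated libraries, a 2.49-fold range in the untreated group. Untreated 1 had the highest value of both ratios to ITGB4. As given above, reads of ITGB4 and GALK1 may be split wrongly, which would alter these ratios. How widely ratios between other genes spread was not counted. The summed FPKM of the 5 alpha chain genes described was 0.450 to 0.495 of ITGB1 in treated and 0.455 to 0.496 of it in untreated libraries. Within that sum ITGAV held 37.7% to 39.9%, ITGA6 32.6% to 35.0%, ITGA2 11.9% to 16.2%, ITGA5 6.06% to 9.88% and ITGA3 3.80% to 6.03% over the 6 libraries.

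**Figure D3:**
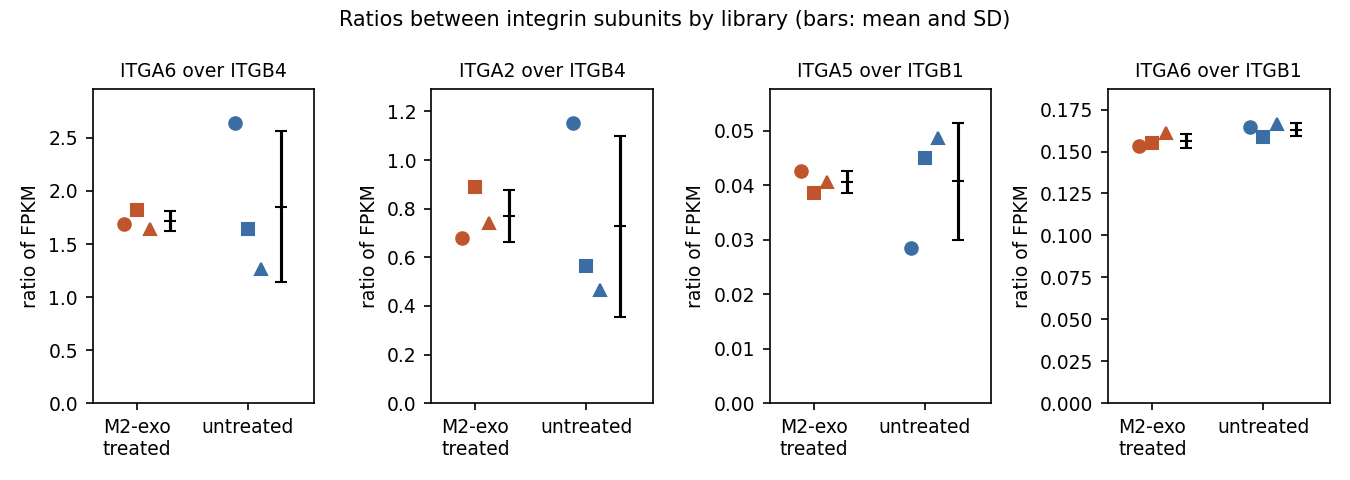
Ratios of FPKM between integrin subunit genes in each library (y axes from 0), with M2-exo treated libraries (orange) left of untreated libraries (blue) and mean and SD as black bars. ITGA6 over ITGB1 is nearly level in all 6 libraries, while ITGA6 over ITGB4 reaches from 1.27 to 2.64 among the untreated libraries.

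The highest and the lowest log2 CPM of the 6 libraries both belonged to 1 group for 7 of the 10 genes. That group was untreated for ITGA2, ITGA5, ITGA6, ITGAV, ITGB1 and ITGB4 and treated for ITGA3. For FN1, THBS1 and LAMC1 they belonged to different groups, although of these only THBS1 was without overlap. The share of all genes tested with both in 1 group was not counted. Against the mean of untreated 2 and 3, untreated 1 had a higher log2 CPM of ITGA2 (0.76), ITGAV (0.49), ITGA6 (0.46), ITGB1 (0.44), FN1 (0.28), LAMC1 (0.20) and THBS1 (0.12). It was lower for ITGB4 (-0.42), ITGA5 (-0.28) and ITGA3 (-0.21). The quartiles of all genes tested were -0.49 and 0.35 in the same difference, so ITGA2, ITGAV, ITGA6 and ITGB1 were outside that range. Over all 6 libraries untreated 1 was highest for 5 of the 10 (30.2% of all genes tested) and lowest for 2 (29.4%). Treated 1 was the lowest treated library for all 10 genes, where 36.6% of all genes tested had it lowest. Without untreated 1, which also has the low mitochondrial share, 4 of the 10 were higher in treated cells with no overlap (FN1, THBS1, ITGA2 and ITGB1), beside 9.68% of all genes tested and 18.1% in either direction. Without treated 3 it was THBS1 and ITGA3, which was lower in treated cells, beside 9.05% of all genes tested in either direction. No gene of the 10 passed there either (lowest adjusted p over all alternatives = 0.957 by edgeR).

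**Figure D4:**
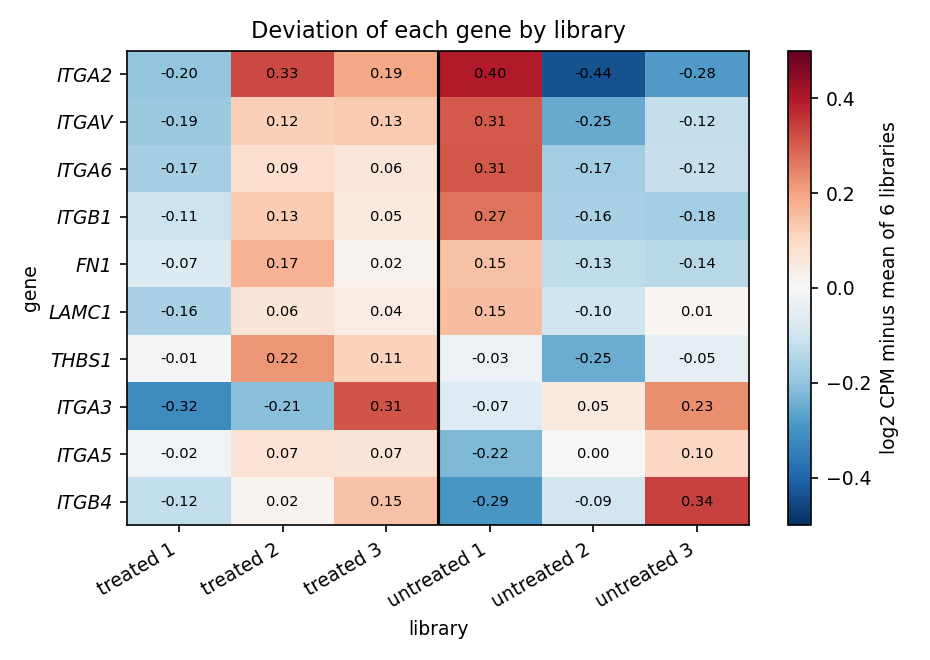
Log2 CPM of each gene minus its mean over the 6 libraries, with libraries on the x axis (M2-exo treated left of the line, untreated right) and genes on the y axis; red is higher and blue lower, and the numbers give the deviation. Untreated 1 is high for ITGA2 (0.40), ITGAV (0.31), ITGA6 (0.31) and ITGB1 (0.27) and low for ITGB4 (-0.29) and ITGA5 (-0.22), with untreated 2 and 3 mostly on the other side.

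The genes whose log2 CPM followed FN1 most closely over the 6 libraries, by root mean square difference after centring among 10890 genes with a mean of at least 5 CPM, were GMPS, encoding GMP synthase (0.03), MCM10, a replication factor gene (0.03), and PPT1, encoding a lysosomal thioesterase (0.03). The same measure of FN1 against a flat line was 0.12. For THBS1 the nearest were EPB41L2, encoding a membrane skeleton protein (0.04), KIAA1549 (0.06) and ZNHIT3 (0.06), with 0.15 for THBS1 against a flat line. For ITGA2 they were IQGAP2, a cytoskeletal scaffold gene (0.10), CTH, encoding cystathionine gamma-lyase (0.10), and RIPOR2 (0.10), with 0.32 for ITGA2 against a flat line. These likenesses rest on 6 libraries, with untreated 1 among them, and are a description.

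Other integrin genes filled out the family. In order of mean FPKM among all 26 integrin genes listed, ITGB5, the beta 5 partner of alpha V, came second after ITGB1, with 22.8 ± 0.0644 FPKM in treated and 25.1 ± 2.73 FPKM in untreated cells (log2 -0.14, SE 0.13). ITGA7, encoding a laminin receptor chain, came sixth, with 7.71 ± 0.644 and 8.75 ± 3.59 FPKM (log2 -0.19, SE 0.29). ITGB8 (log2 0.20, SE 0.22) and ITGAE, the alpha E chain known from intraepithelial lymphocytes (log2 0.10, SE 0.22), had the highest fold changes of the other integrins with a mean of at least 5 CPM; below that level ITGA2B had 0.85 (SE 0.63). Of these 19 genes 8 were tested, 5 above 0 and 3 below, with a median of 0.07, and 0 passed. The leukocyte chains ITGB2 and ITGAM had at most 6 counts in any library, and ITGA4, ITGAD and ITGAX had 0 counts in all 6, which allows up to 0.164 to 0.192 CPM per library (3 counts, counting error only).

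Matrix genes beyond the 10 gave 16 of 25 tested above 0 and 9 below (31 listed, median 0.03), and 0 passed. Levels were highest for VTN, encoding vitronectin, at 149.5 ± 31.9 FPKM in treated and 146 ± 19.4 FPKM in untreated cells (log2 0.03), and for FBLN1, encoding fibulin 1, at 84.5 ± 3.48 and 92.1 ± 2.99 FPKM (log2 -0.13, SE 0.12). FBLN1 was lower in all 3 treated libraries without overlap, as were 2.3% of all genes tested. Among the genes named by fold change, LAMA5 had a log2 fold change of 0.19 (SE 0.32), and COL4A2, a basement membrane collagen gene, had the lowest of those with a mean of at least 5 CPM (-0.42, SE 0.27). SPP1, encoding osteopontin, was singled out after its values were seen, as the only gene of the 4 lists with an unadjusted p under 0.05. It had 0.384, 0.494 and 0.357 FPKM in treated and 0.189, 0.192 and 0.144 FPKM in untreated libraries (log2 1.22, SE 0.43; unadjusted p = 0.0187, adjusted p = 0.9999 by edgeR).

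The other receptors and partners, 13 of 14 tested, had 5 fold changes above 0 and 8 below (median -0.01), and 0 passed. CALR, encoding calreticulin, a partner of thrombospondin 1 at the cell surface, had 328 ± 24.6 FPKM in treated and 317 ± 44.6 FPKM in untreated cells. SDC4, the syndecan that binds fibronectin beside integrins, had 99.3 ± 4.46 and 97.2 ± 15.3 FPKM. CD47, the thrombospondin 1 receptor, had the lowest fold change, with 0.623, 0.683 and 0.604 FPKM in treated and 0.845, 0.807 and 0.696 FPKM in untreated libraries (log2 -0.30, SE 0.21). It was lower in treated libraries without overlap, as were 2.3% of all genes tested, and did not pass. SDC2 had the next lowest fold change (log2 -0.19), and CD81 (0.12) and the collagen receptor DDR1 (0.07) had the highest. CD36, another thrombospondin receptor, had at most 1 count in any library and was not tested.

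Inside the cell, the focal adhesion and hemidesmosome genes, 29 of 30 tested, had 17 fold changes above 0 and 12 below (median 0.02), and 0 passed. FLNA, encoding filamin A, stood at 100.4 ± 24.7 FPKM in treated and 96.9 ± 31.4 FPKM in untreated cells, and ACTN4, encoding alpha-actinin 4, at 97.8 ± 11.3 and 108 ± 14.3 FPKM (log2 -0.14, SE 0.15). The kinase gene SRC (log2 0.17, SE 0.25) and the adaptor gene BCAR1 (0.16, SE 0.35) had the highest fold changes, and TNS1, encoding tensin 1, was among the lowest at a mean of at least 5 CPM (-0.16, SE 0.21).

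**Figure D5:**
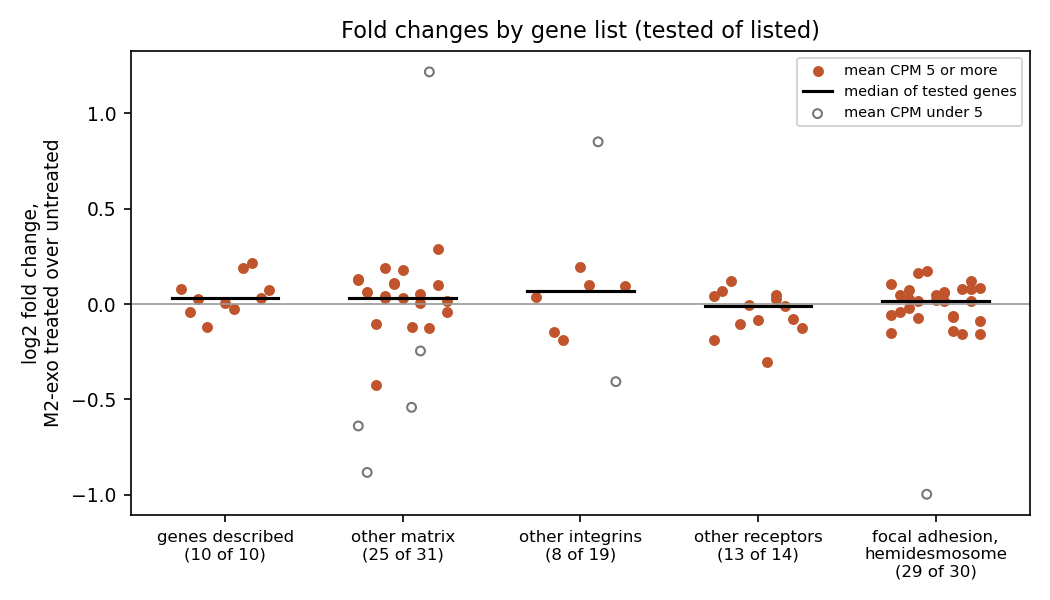
Log2 fold changes, M2-exo treated over untreated (y axis), of the tested genes of each list (x axis, tested of listed), with filled marks for a mean of at least 5 CPM, open marks below it and lines at the medians. The medians lie between -0.01 and 0.07, and the highest point is SPP1 at 1.22, a gene of low level.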

How the data were processed

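Read counts per gene and FPKM of 6 Caco-2 libraries were used as deposited by the authors. Per the submitters' processing notes, the tools were CASAVA, HISAT2 and featureCounts on build GRCh38; not given in the sources used here were their versions, the strand setting and the handling of multi-mapping reads. The deposited FPKM values were each count divided by the table's gene length and a constant per library that was 0.970 to 1.02 times the one from the column total. Left out were 6 columns whose names fit none of the samples, and the exosome miRNA table.

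The test between groups ran on counts in edgeR 4.0.16, R 4.3.3 (filterByExpr, TMM, quasi-likelihood F test, 2-sided, Benjamini-Hochberg at 0.05); SE is the size of the log2 fold change over the square root of F. On 3 simulated tables of 15084 genes for this comparison, changes were placed only in genes with a mean of at least 5 CPM. The test found 3.98% of the changes of 1.5-fold, 52.7% of those of 2-fold and 99% of those of 4-fold. Of genes without a change, 0.056% passed. Recovery of changes in genes of lower level was not measured. DESeq2 1.42.0, limma 3.58.1 on voom values, log2(FPKM + 1) and log2(FPKM + 0.1), other scalings and filters, a replicate block and each library left out were alternatives.

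Named beside the 10 genes were, from each of 4 lists, the 2 highest and 2 lowest fold changes at a mean of at least 5 CPM and the 2 highest levels, and the 3 genes nearest in pattern to FN1, THBS1 and ITGA2; chains discussed as partners were added, and some genes that the rule names are not reported here. CCN1 and CCN2 were matched by identifier. The genes, lists and rules were chosen with earlier results of these data known. No library pair of a group matched within sampling noise (chi-square per gene of at least 15.1).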

Additional observations from a re-analysis of the deposited data

How the results depend on the processing

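The count of called genes, 0, was the same with RLE factors, total counts, a mean CPM of at least 1, DESeq2, limma-voom and both FPKM scales. With no filter on low counts it was 6, none of the 10 genes among them; the cause was not tested. Leaving out 1 library gave 0 to 1 genes, the 1 being BOLA2B without treated 2 (log2 5.00, adjusted p = 0.00625 by edgeR), named after its values were seen. A replicate block gave a count of 0 and no gene of the 10 passed. In that fit 211 genes had an unadjusted p under 0.05 by edgeR, against 111 without the block. No source used here says whether the numbers pair the samples, and the values do not settle it. The deviations of same-numbered libraries correlated at 0.281, -0.0648 and 0.481, and those of other-numbered libraries at -0.421 to 0.184. Of the 6 libraries, 4 correlated best with their own number. Scores on the first principal component rose with the number in both groups. They were -13.4, 1.89 and 23.8 in treated 1 to 3, and -56.0, 0.479 and 43.2 in untreated 1 to 3.

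All 90 fold changes of the 10 genes under the 9 alternatives that kept every library had the sign reported. The 20 levels compared with TMM-scaled CPM per kilobase were each within 1 SD. Both scales come from the same counts and gene lengths, so that closeness is not a separate check of the levels. Leaving out 1 library turned the sign in 16 of 60 fits, over 7 genes: the log2 fold change ranged from -0.33 to 0.0165 for ITGA3, -0.00591 to 0.16 for ITGA5, -0.10 to 0.15 for ITGA6, -0.0608 to 0.22 for ITGAV, -0.0239 to 0.20 for ITGB1, -0.11 to 0.22 for ITGB4 and -0.0832 to 0.0464 for LAMC1. It kept its sign for FN1 (0.01 to 0.18), THBS1 (0.16 to 0.30) and ITGA2 (0.05 to 0.49). The number of the 10 without overlap between groups was 1 to 4 when each library was left out, an alternative chosen after seeing the data; it was 4 without untreated 1 and 2 (THBS1 and ITGA3) without treated 3, beside 18.1% and 9.05% of all genes tested. With 3 libraries a group, fold changes under 1.5 could rarely be called.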

Other observations

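Of the 75 tested genes of the 4 lists, log2 CPM in untreated 1 was below the mean of untreated 2 and 3 for 45 and above it for 30. A total of 22 were below the lower quartile of all genes tested (-0.49) and 10 above the upper quartile (0.35). Among the genes below it were the collagen receptor gene DDR1 (-1.20), LAMA5 (-1.18), BCAR1 (-1.17), ITGA7 (-1.15) and SRC (-1.02). Among the genes above it were ITGB6, encoding an epithelial partner of alpha V (1.23), KRIT1 (0.77), ITGA1, encoding a collagen receptor chain (0.69), FERMT2, encoding kindlin 2 (0.59), and PTK2, encoding focal adhesion kinase (0.48). DDR1 had 18.3, 18.4 and 20.7 FPKM in treated libraries, against 9.58, 18.4 and 26.6 FPKM in untreated libraries. ITGB6 had 0.749, 0.330 and 0.377 FPKM in treated libraries, against 1.06, 0.452 and 0.427 FPKM in untreated libraries. These genes were chosen after their values were seen, and 29.4% of all genes tested had their lowest value of the 6 in untreated 1 and 30.2% their highest.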
